A study of Rattus norvegicus with 10 samples.

Results

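The 10 genes of glycolysis described here were examined in the hippocampus of female rats with and without dietary RG2833, an inhibitor of the histone deacetylases HDAC1 and HDAC3. They were chosen by name, as the rows Hk1, Gpi, Pfkm, Pfkp, Aldoa, Tpi1, Pgk1, Pgam1, Eno2 and Ldhb of the deposited tables, which hold 17168 gene symbols. All 10 were present, and all 10 were among the 11791 genes that passed the filter on low counts. The animals were TgF344-AD rats, a transgenic model of Alzheimer's disease, killed at 11 months of age. The untreated group was 5 animals on rodent chow. The RG2833 group was 5 animals given chow with 750 mg of drug per kg for 6 months, beginning at 5 months of age. Every animal in both groups carried the transgenes, so there is no wild-type reference. In this strain the transgenes are driven by a mouse prion promoter. A blue food dye served to tell the chows apart. Left hippocampi were taken after perfusion with cold buffer, and strand-specific mRNA libraries were sequenced.

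Glycolysis is the cytosolic chain of reactions that turns glucose into pyruvate and yields ATP and NADH. Lactate dehydrogenase interconverts pyruvate and lactate and so regenerates NAD+. In the brain, neurons and astrocytes both run the pathway but use partly different isozymes, proteins of different genes that carry out the same reaction. Gamma-enolase (Eno2) is typical of neurons and aldolase C (Aldoc) of astrocytes. The 10 genes cover most of the chain. Glyceraldehyde-phosphate dehydrogenase (Gapdh) and pyruvate kinase (Pkm) fall outside the selection and are described with the related genes.

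The data set-wide facts that bear on these genes were few. Libraries held between 8764266 and 11311673 estimated counts. Ribosomal RNA loci took 2.70% to 5.36% of the counts in untreated animals and 1.13% to 1.96% in RG2833 animals, so the groups did not overlap in this share, and treatment and ribosomal RNA share cannot be told apart. Choroid plexus genes stood at 2404 summed CPM (counts scaled to library size, after a correction called TMM) in untreated replicate 1 and at 3.89 to 41.8 in the other animals. Excitatory neuron genes were present in every library, with summed levels of 2223 to 3462 CPM in untreated and 3729 to 4448 CPM in RG2833 animals.

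The 10 glycolysis genes stayed close to their untreated levels in RG2833 animals. None of them was called at an adjusted p under 0.05 (edgeR's quasi-likelihood test, adjusted over all 11791 genes), against 5.08% of all tested genes (2.41% called higher and 2.67% called lower with RG2833). At an unadjusted p under 0.05 the count was likewise 0 of 10, against 24.5% of all genes. DESeq2's Wald test and limma-voom also called 0 of the 10. Log2 fold changes ran from -0.21 for Tpi1 to 0.065 for Eno2. The median was -0.039, and the median over all tested genes was -0.0035. In every gene the untreated and RG2833 values overlapped, while 7.27% of all tested genes showed no overlap. The median absolute log2 fold change was 0.055 over the 10 genes, 0.16 over all tested genes, and 0.14 over the 410 genes expressed at least as highly as the lowest of the 10, of which 8.54% were called. In this bulk tissue, fewer cells of a type and less RNA per cell cannot be told apart.

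**Figure D1:**
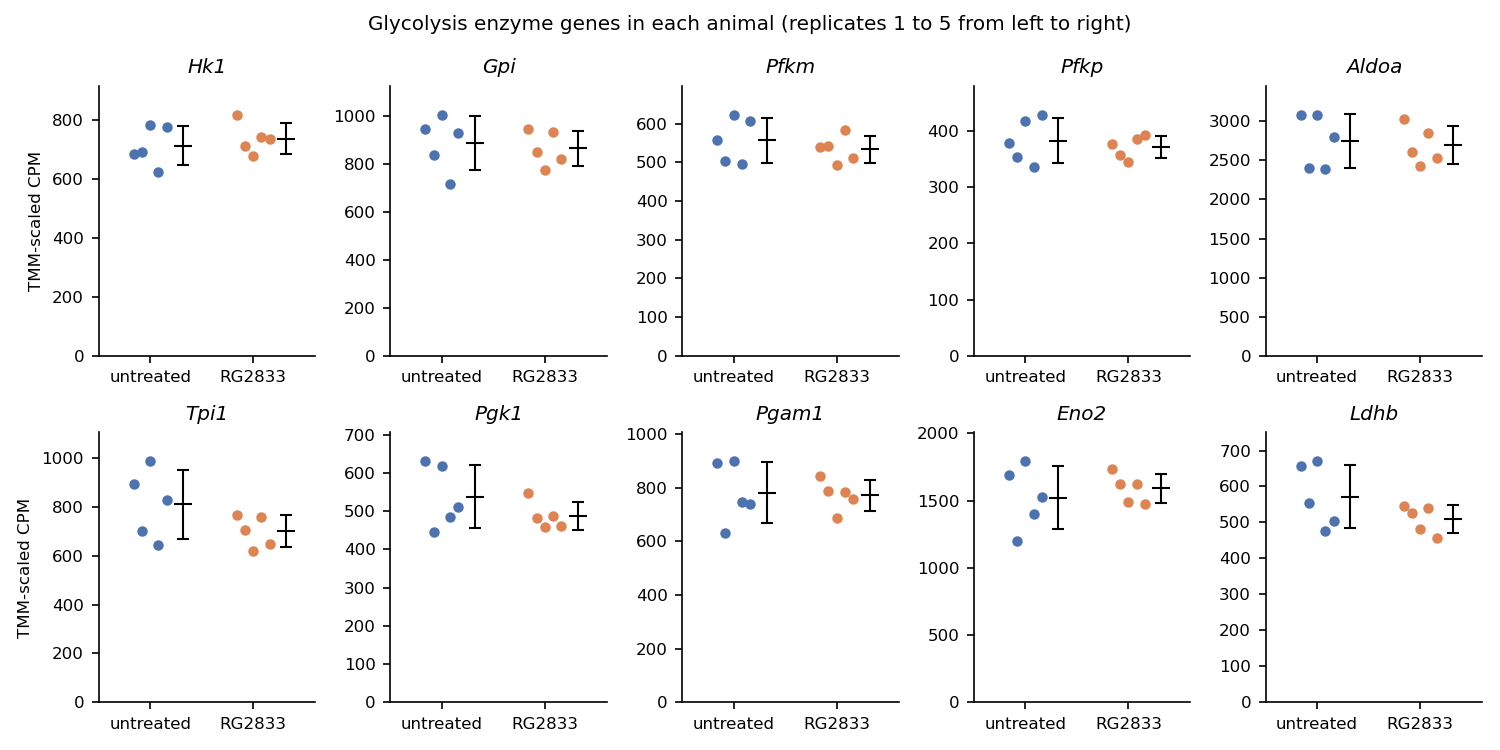
TMM-scaled CPM of each glycolysis enzyme gene, with 1 point per animal (5 untreated in blue, 5 RG2833 in orange) and the mean and SD of each group as a black bar; each vertical axis starts at 0. The 2 groups overlap in all 10 panels, and the untreated points are spread more widely.

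The upper part of the pathway traps glucose in the cell and prepares it for splitting. Hk1 encodes hexokinase 1, the main brain hexokinase, which phosphorylates glucose at the entry step. Its level was 687, 692, 783, 625 and 777 CPM in untreated replicates 1 to 5 and 818, 712, 678, 744 and 734 CPM in RG2833 replicates 1 to 5. The highest animal was an RG2833 animal and the lowest an untreated one, with the remaining values intermingled. The log2 difference was 0.049 ± 0.083 (standard error; edgeR adjusted p = 0.7547), with a 95% interval from 0.913-fold to 1.17-fold.

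Gpi encodes glucose-6-phosphate isomerase, which converts glucose phosphate to fructose phosphate. The untreated animals averaged 885 ± 111 CPM and the RG2833 animals 864 ± 72.7 CPM (SD, n = 5 each). The lowest animal was untreated replicate 4, at 716 CPM, below all RG2833 values, which began at 775 CPM. The interval of the change ran from 0.842-fold to 1.13-fold.

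Pfkm and Pfkp encode the muscle and platelet subunits of phosphofructokinase, which catalyses the committed step of glycolysis. Pfkm ranged from 496 to 622 CPM in untreated animals, with a median at replicate 1 of 558 CPM, and from 493 to 583 CPM in RG2833 animals. Pfkp ranged from 336 to 429 CPM in untreated and from 345 to 393 CPM in RG2833 animals. For both subunits the RG2833 range lay almost wholly inside the untreated range. The log2 fold changes were -0.062 ± 0.085 for Pfkm and -0.043 ± 0.082 for Pfkp (standard error; edgeR adjusted p = 0.691 and 0.7861).

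Aldoa encodes aldolase A, which splits fructose bisphosphate into a pair of triose phosphates. Untreated values were 3080, 2397, 3081, 2394 and 2803 CPM in replicates 1 to 5, and RG2833 values were 3026, 2606, 2434, 2855 and 2535 CPM. In untreated animals the values fell into a low pair and a high pair with 1 value between, and the RG2833 values lay within those limits. The log2 difference of -0.032 ± 0.10 (standard error) had an edgeR adjusted p of 0.8766.

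Past triosephosphate isomerase, the lower part of the pathway harvests energy from the triose phosphates. The remaining genes, from Tpi1 to Ldhb, held both the lowest and the highest fold changes of the 10. Tpi1 encodes triosephosphate isomerase, which interconverts the triose phosphates so that both can continue. Its level was 891, 701, 985, 642 and 828 CPM in untreated replicates 1 to 5 and 767, 705, 621, 759 and 649 CPM in RG2833 replicates 1 to 5. All 5 RG2833 animals were below the untreated mean of 810 CPM, but untreated replicates 2 and 4 were as low as they were. The log2 difference was -0.21 ± 0.12 (standard error; edgeR adjusted p = 0.2865), and its 95% interval ran from 0.726-fold to 1.03-fold.

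Tpi1 is the member for which read assignment was least certain. Its expected counts were fractional in all 10 animals, which is how RSEM records reads shared between similar sequences. Those of Aldoa were fractional in 9 animals and those of the other 8 genes in 0. LOC500959, which the deposited table describes as a triosephosphate isomerase, averaged 68.2 CPM without and 76.7 CPM with the drug, a log2 difference of 0.17 ± 0.11 (standard error; edgeR adjusted p = 0.3466). With the counts of this copy added, an alternative chosen after seeing the data, the Tpi1 log2 difference was -0.18 ± 0.11 (standard error; edgeR adjusted p = 0.3625).

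Pgk1 encodes phosphoglycerate kinase 1, the first ATP-producing enzyme of the chain. It was at 630, 445, 619, 484 and 511 CPM in untreated replicates 1 to 5 and at 547, 483, 459, 487 and 461 CPM in RG2833 animals. Untreated replicates 1 and 3 stood above every RG2833 animal, and untreated replicate 2 below every one. The log2 difference was -0.14 ± 0.10 (standard error; edgeR adjusted p = 0.4235).

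Pgam1, phosphoglycerate mutase 1, moves the phosphate group within phosphoglycerate ahead of the enolase step. Its means nearly coincided at 781 ± 113 and 771 ± 57.0 CPM (SD, n = 5), and it had the highest p-value of the 10 genes (log2 difference -0.018 ± 0.10, standard error; edgeR adjusted p = 0.9293).

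Eno2, the neuronal enolase, had untreated values of 1687, 1199, 1791, 1400 and 1527 CPM in replicates 1 to 5 and RG2833 values of 1738, 1625, 1492, 1625 and 1474 CPM. All RG2833 values lay between the untreated extremes. Its log2 difference of 0.065 ± 0.11 (standard error; edgeR adjusted p = 0.7474) was the highest of the 10, with an interval from 0.891-fold to 1.23-fold. Excitatory neuron genes had positive log2 fold changes between 0.36 and 0.83 in the same libraries. Of these, 1 of 6 was called (Camk2a, edgeR adjusted p = 0.04592), where background was 5.08% of all tested genes. Among pan-neuronal genes 4 of 5 were positive, 1 called (Rbfox3, 0.57 ± 0.14, SE, edgeR adjusted p = 0.04003), and Stmn2 was at -0.13. Inhibitory neuron genes were negative in 5 of 6, with a median of -0.15 and 0 called. The difference between Eno2 and these markers was not tested.

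Ldhb encodes the lactate dehydrogenase subunit of heart-type enzyme, the form that prevails in neurons. Its level was 657, 554, 670, 476 and 504 CPM in untreated replicates 1 to 5 and 546, 525, 481, 540 and 456 CPM in RG2833 animals. As with Tpi1, all 5 RG2833 animals were below the untreated mean of 572 CPM, and untreated replicates 2, 4 and 5 were also below it. The log2 difference was -0.17 ± 0.11 (standard error; edgeR adjusted p = 0.3472), with an interval from 0.761-fold to 1.043-fold.

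**Figure D2:**
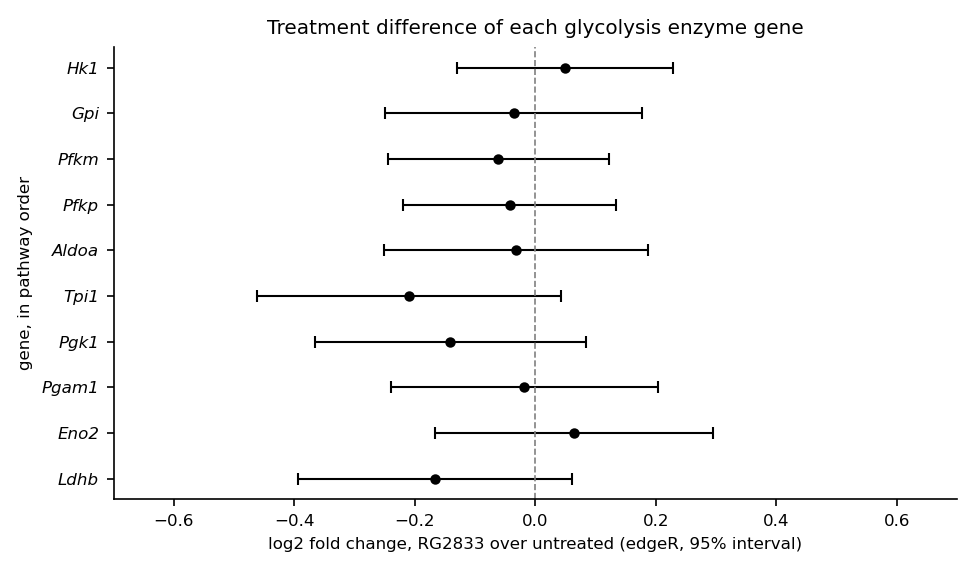
Log2 fold change of each glycolysis enzyme gene, RG2833 over untreated, as points with 95% intervals from the edgeR fit (5 animals a group); the dashed line marks no difference. Every interval crosses 0, and the points run from -0.21 (Tpi1) to 0.065 (Eno2).

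The lowest limit of any interval was 0.726-fold, for Tpi1, and the highest was 1.23-fold, for Eno2. The log2 fold change was negative for 8 of 10 genes and for 5963 of all 11791. Without untreated replicate 3, and likewise without RG2833 replicate 3, 5 of 10 were negative, with medians of -0.0051 and -0.0079. With the ribosomal RNA share in the model 9 of 10 values were positive, and with the excitatory neuron markers 10 of 10 were, with 0 called in either fit. These fits called 2 and 3 of all tested genes, so 0 of 10 there says little about the glycolysis genes. Among the 230 values of the 10 genes over all alternatives, 0 passed the threshold. The lowest adjusted p was 0.09739, for Tpi1 without untreated replicate 4, where its log2 fold change was -0.28.

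The 10 genes varied between individual animals within each group, and they largely rose and fell together. For each gene and animal the log2 CPM was centred on the mean of that gene over the 10 animals. Untreated replicate 3 was above the mean in 10 of 10 genes, by 0.23 on average, and it was the highest of all animals for 7 of them. Untreated replicate 4 was below the mean in 10 of 10 genes, by -0.16 on average. The same held for RG2833 replicate 3, at -0.15, so animals low throughout the set occurred in both groups.

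Other animals were less uniform. Untreated replicate 1 was above the mean in 9 of 10 genes (average 0.15) and untreated replicate 2 in 1 of 10 (-0.14). Untreated replicate 2 had its lowest deviation at Eno2, -0.37, yet stood at 0.046 for Ldhb. RG2833 replicates 1 to 5 averaged 0.091, -0.029, -0.15, 0.041 and -0.086. The group averages were 0.026 in untreated and -0.026 in RG2833 animals, with SDs over animals of 0.17 and 0.096.

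**Figure D3:**
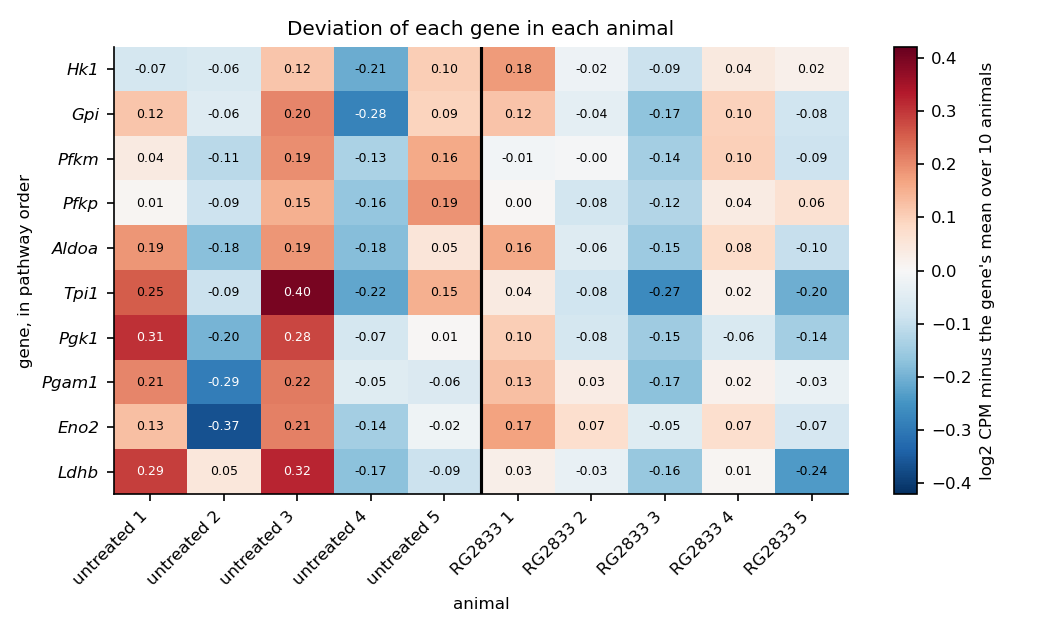
Deviation of log2 CPM from the mean of each gene over 10 animals, with genes as rows in pathway order and animals as columns; the black line separates the 5 untreated from the 5 RG2833 animals. Untreated replicate 3 is red in all 10 rows, and untreated replicate 4 and RG2833 replicate 3 are blue in all 10.

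Scaled by library totals alone, the 10 genes together made up 1.037%, 0.843%, 1.054%, 0.837% and 0.997% of all counts in untreated replicates 1 to 5 and 1.00%, 0.911%, 0.859%, 0.958% and 0.872% in RG2833 replicates 1 to 5. The 2 lowest shares were those of untreated replicates 4 and 2, followed by RG2833 replicate 3. Pan-neuronal genes summed to 6562, 4201, 5994, 5198 and 5415 CPM in untreated replicates 1 to 5 and 7576, 6501, 6153, 6396 and 6582 CPM in RG2833 replicates 1 to 5. Astrocyte genes summed to 3686, 5101, 3489, 4689 and 3278 CPM in untreated and 3618, 4499, 4163, 4926 and 4708 CPM in RG2833 replicates 1 to 5. In the untreated animals the pair with low glycolysis values, replicates 2 and 4, had the lower neuronal and the higher astrocyte sums. Such sums weigh the most highly expressed genes most, and other measures differed for replicate 4. Averaged over genes as centred log2 CPM, its pan-neuronal value was -0.065, above the -0.11 of untreated replicate 1. Its astrocyte average of -0.020 was near those of untreated replicates 1 and 3, -0.039 and -0.036. Its excitatory neuron sum, 3462 CPM, was the highest of the untreated animals. RG2833 replicate 3, low in all 10 glycolysis genes, had a higher neuronal sum than untreated replicate 3, which was high in all 10, and RG2833 replicate 4, above the mean in 9 genes, had a high astrocyte sum. The part of cell composition in the glycolysis values was not tested.

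Likeness was measured as the root mean square difference, over the 10 animals, between the centred log2 profile of a gene and the mean profile of the set. Each of the 10 genes lay 0.038 (Aldoa) to 0.12 (Ldhb) from the mean of the other 9. Over the 400 other genes expressed at least as highly as the lowest of the 10, the median distance was 0.19, and 21.2% of them were nearer than Ldhb. These are descriptions of 10 shared libraries. The 5 other tested genes nearest to the profile were Cyp51, a cholesterol synthesis enzyme (0.035), Cct2, a subunit of the cytosolic chaperonin (0.042), Tubb5, a beta-tubulin (0.043), Sult4a1, a brain sulfotransferase (0.046), and Stip1, a co-chaperone of heat shock proteins (0.049). All 5 overlapped between the groups, with log2 fold changes from -0.079 to 0.021 and edgeR adjusted p-values from 0.5835 to 0.8963.

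Spread between animals was larger in the untreated group for 10 of 10 glycolysis genes. The median SD of log2 CPM over the set was 0.20 in untreated and 0.11 in RG2833 animals. Over all tested genes the medians were 0.21 and 0.14, and 75.6% of genes had the larger SD in the untreated group, so the direction is that of most genes. Tpi1 had the largest untreated SD, 0.25, and Hk1 the smallest, 0.14.

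The promoters of the 10 genes were searched for known elements. Hypoxia-inducible factors, which bind the cores ACGTG and GCGTG, are known regulators of glycolysis genes. RefSeq promoter sequences of the GRCr8 build were matched by symbol for 9 of the 10 genes, in 12 windows because Hk1 and Aldoa have several starts. The window was the 250 bases before the annotated start, and both strands were searched. ACGTG was found in 5 of the 12 windows and in 16.6% of all 33469 promoter windows. GCGTG was found in 3 of the 12, against 25.9%. GGGCGG, a core bound by the general factor Sp1, was found in 7 of the 12, against 30.5%. GCGTG and ACGTG can overlap neighbouring matches of each other.

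Windows are shown for Tpi1 and Ldhb, the matched genes with the lowest p-values, and for Pgam1 and Eno2, which hold an ACGTG core. Capitals mark matches to ACGTG or GCGTG on either strand, and each sequence is written 5′ to 3′ on the strand of the gene. The Tpi1 window (chr4:159305089-159305338, minus strand) has no match. The Ldhb window is chr4:177177409-177177658 (minus strand), the Pgam1 window chr1:250672902-250673151 (plus strand) and the Eno2 window chr4:159267221-159267470 (minus strand).
Tpi1: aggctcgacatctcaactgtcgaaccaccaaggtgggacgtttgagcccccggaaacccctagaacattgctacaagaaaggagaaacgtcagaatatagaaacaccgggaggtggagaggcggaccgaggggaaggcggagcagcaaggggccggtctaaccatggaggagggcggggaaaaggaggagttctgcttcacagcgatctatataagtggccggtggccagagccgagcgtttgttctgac
Ldhb: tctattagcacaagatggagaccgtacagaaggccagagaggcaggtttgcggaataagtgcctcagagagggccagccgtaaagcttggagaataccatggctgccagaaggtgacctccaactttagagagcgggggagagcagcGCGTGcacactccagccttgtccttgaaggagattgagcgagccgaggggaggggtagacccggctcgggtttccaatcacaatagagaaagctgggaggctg
Pgam1: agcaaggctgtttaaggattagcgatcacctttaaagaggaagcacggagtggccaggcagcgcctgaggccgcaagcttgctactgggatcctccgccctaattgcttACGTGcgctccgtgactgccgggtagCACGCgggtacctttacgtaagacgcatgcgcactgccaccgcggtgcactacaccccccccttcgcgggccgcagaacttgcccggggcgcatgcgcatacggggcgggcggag
Eno2: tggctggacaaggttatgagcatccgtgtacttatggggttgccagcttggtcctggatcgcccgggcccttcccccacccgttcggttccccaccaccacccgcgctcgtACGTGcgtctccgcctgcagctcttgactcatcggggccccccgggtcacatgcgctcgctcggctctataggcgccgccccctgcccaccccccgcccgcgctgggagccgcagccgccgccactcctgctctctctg
A match is a description of letters and not a binding site.

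Isozyme choice was compared through ratios of counts within each animal, which do not depend on library scaling. Of 6 ratios, 0 differed between the groups after adjustment over the 6 (two-sided exact permutation tests; the smallest possible p is 0.00794). The nearest was Eno2 over Eno1, the neuronal against the widely expressed enolase. Its log2 ratio was 0.44, 0.47, 0.62, 0.62 and 0.58 in untreated replicates 1 to 5 and 0.67, 0.72, 0.68, 0.65 and 0.56 in RG2833 animals. Of the RG2833 values, 4 exceeded all untreated values, and replicate 5 did not. The difference was 0.11 (exact permutation p = 0.0556, adjusted p = 0.333).

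Aldoa over Aldoc, the broadly expressed against the astrocytic aldolase, had a mean log2 ratio of 1.204 ± 0.30 in untreated and 1.44 ± 0.15 in RG2833 animals (SD, n = 5; exact permutation p = 0.159). Untreated replicate 2 stood apart, at 0.69, where the other 4 lay between 1.199 and 1.39. Aldoc itself went from 1202 ± 216 to 994 ± 89.5 CPM (log2 difference -0.27 ± 0.12, standard error, edgeR adjusted p = 0.1798). It passed only without untreated replicate 4 (edgeR adjusted p = 0.04469), a fit that called 1556 of all tested genes against 599 in the main fit. Ldhb over Ldha, the heart-type against the muscle-type lactate dehydrogenase gene, was 0.31 ± 0.26 and 0.18 ± 0.082 (SD, n = 5; exact permutation p = 0.373). Untreated replicate 2 was again the extreme, at 0.75, with the other untreated values at most 0.31. Without this animal the difference in Ldhb over Ldha went from -0.13 to -0.021, and that in Aldoa over Aldoc from 0.23 to 0.10.

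Pfkp over Pfkm averaged -0.54 ± 0.035 and -0.52 ± 0.090 (SD, n = 5; exact permutation p = 0.714). Pfkm over Pfkl, the liver subunit, averaged 0.80 ± 0.19 and 0.66 ± 0.13 (SD, n = 5; exact permutation p = 0.23). Hk1 over Hk2 averaged 6.39 ± 0.39 and 6.37 ± 0.26 (SD, n = 5; exact permutation p = 0.857), with Hk2 at 8.62 and 8.91 CPM.

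**Figure D4:**
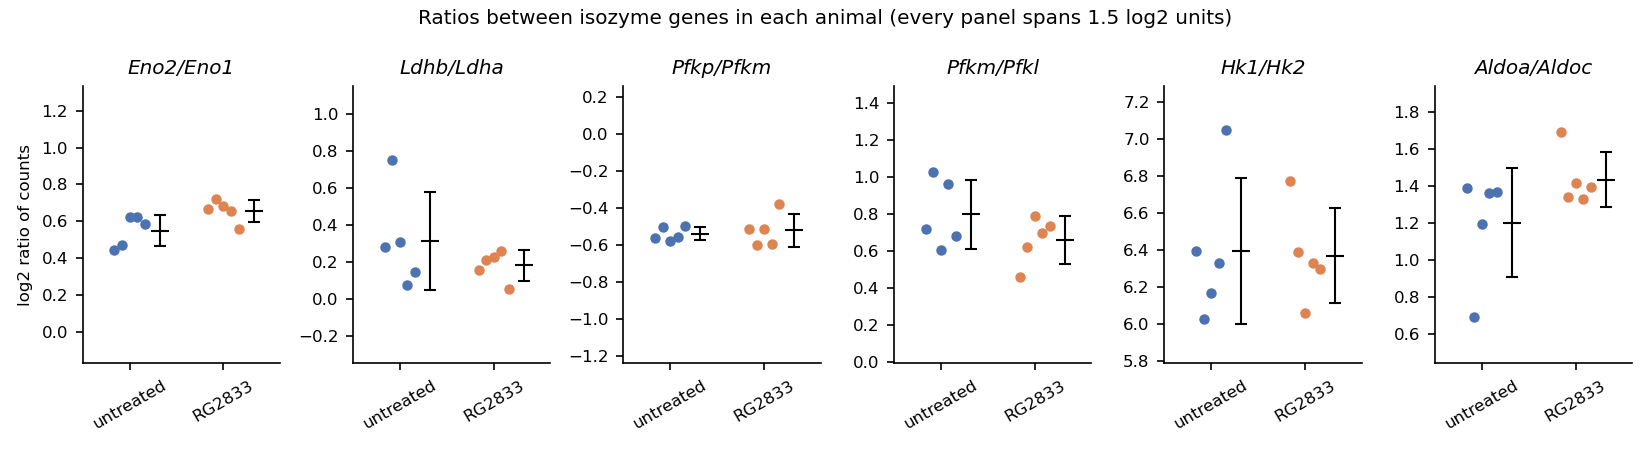
Log2 ratio of counts between isozyme genes, with 1 point per animal (5 untreated in blue, 5 RG2833 in orange), replicates 1 to 5 from left to right, and mean and SD as a black bar; axes span the same 1.5 log2 units but do not start at 0. The groups overlap in all 6 panels, least for Eno2/Eno1, where 4 RG2833 points lie above all untreated points.

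Of 19 other glycolytic isozymes listed, 13 were tested, 0 were called, and their median log2 fold change was -0.046. At an unadjusted p under 0.05 the count was 2 of 13, Aldoc and Pklr, against 24.5% of all tested genes. Pklr, the liver and red cell pyruvate kinase, named here after its values were seen, was at 2.93 ± 0.848 and 1.80 ± 0.298 CPM (SD), with overlapping groups (log2 difference -0.69 ± 0.24, standard error; edgeR adjusted p = 0.09993). Without untreated replicate 4, where 1556 of all tested genes were called, both passed, Pklr at an edgeR adjusted p of 0.03264. Gapdh, the enzyme between triosephosphate isomerase and phosphoglycerate kinase, was at 4221 ± 591 and 4088 ± 374 CPM (log2 difference -0.046 ± 0.11, standard error; edgeR adjusted p = 0.8264). Pkm, which makes pyruvate in the last step, was at 1626 ± 336 and 1792 ± 137 CPM (0.14 ± 0.13; edgeR adjusted p = 0.5401). Eno1, Ldha, Pfkl and Hk2 had log2 fold changes of -0.043, -0.046, 0.060 and 0.044.

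Among 10 glucose and lactate transporter genes, all tested, 0 were called (median 0.0082). Bsg, basigin, the partner that brings lactate transporters to the membrane, went from 793 to 898 CPM (log2 difference 0.18 ± 0.088, standard error; edgeR adjusted p = 0.2299), and Slc2a1, the glucose transporter of the blood-brain barrier and glia, from 211 to 190 CPM (-0.16 ± 0.12; edgeR adjusted p = 0.4515). In the pentose phosphate pathway 0 of 7 tested genes were called (median 0.024), with Tkt at 0.052 and Taldo1 at 0.018. In the glycerol phosphate and malate-aspartate shuttles, which carry cytosolic NADH equivalents into mitochondria, 0 of 8 were called (median 0.0014). Mdh1, cytosolic malate dehydrogenase, had a log2 difference of -0.21 ± 0.12 (standard error; edgeR adjusted p = 0.2932) and Got1 one of -0.094. Of 6 genes of lower gluconeogenesis 2 were tested and 0 called, Pck2 (-0.35 ± 0.11; edgeR adjusted p = 0.08948) and G6pc3 (-0.28 ± 0.11; edgeR adjusted p = 0.1419). Both had an unadjusted p under 0.05, as did 24.5% of all tested genes. Both passed in the fit without untreated replicate 4, at edgeR adjusted p-values of 0.02128 and 0.0225. That fit called 1556 of all tested genes, against 599 in the main fit.

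Mpc2, a subunit of the carrier that takes pyruvate into mitochondria, was the 1 call among 14 genes of pyruvate entry (median -0.026), where background was 5.08%. It was at 39.2, 36.3, 37.8, 29.1 and 23.9 CPM in untreated replicates 1 to 5 and 26.0, 21.9, 19.9, 23.5 and 21.0 CPM in RG2833 animals. Untreated replicate 5 was inside the RG2833 range and the other 4 were above it. Mpc2 fell by 0.57 on the log2 scale (SE 0.13; edgeR adjusted p = 0.03646). Its partner subunit Mpc1, named here after its values were seen, had a log2 fold change of -0.090 ± 0.090 (edgeR adjusted p = 0.5732). Pdha1 and Pdk2, a pyruvate dehydrogenase subunit and a kinase that inhibits that complex, stood at -0.034 and 0.078. The Mpc2 call held only without untreated replicate 4 or 5 among the 10 fits that each left out 1 animal, and the replicate block gave an adjusted p of 0.06099. The size stayed similar, with log2 fold changes from -0.66 to -0.50 in those 10 fits and -0.55 with the block. Its log2 fold change was -0.19 with the ribosomal RNA share in the model and -0.26 with the excitatory neuron markers, and it passed in neither fit.

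In glycogen metabolism, Pygb and Pgm2l1, brain glycogen phosphorylase and glucose bisphosphate synthase, had log2 fold changes of -0.091 and -0.019 (edgeR adjusted p = 0.6717 and 0.9254).

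Among 13 listed regulators of glycolysis, 9 were tested, 0 were called, and 8 of 9 had positive values (median 0.16). Hif1a, a hypoxia-inducible factor subunit, stood at 0.063 ± 0.099 and Epas1, its paralogue, at 0.16 ± 0.11 (log2, SE). Pfkfb3 and Gbe1 were singled out after their values were seen, because their groups did not overlap, as was so for 7.27% of all tested genes. Pfkfb3 makes the fructose bisphosphate that activates phosphofructokinase. It was at 16.6, 11.7, 16.5, 20.9 and 23.2 CPM in untreated replicates 1 to 5 and at 23.6, 23.4, 23.7, 23.4 and 34.1 CPM in RG2833 animals. The gap between the groups was narrow, from 23.2 to 23.4 CPM. The log2 difference was 0.53 ± 0.17 (standard error; edgeR adjusted p = 0.09067), with 0.40 without RG2833 replicate 5 (adjusted p = 0.2081) and 0.64 without untreated replicate 5 (adjusted p = 0.04356). DESeq2 gave an adjusted p of 0.04606. With the ribosomal RNA share in the model it was -0.052. Gbe1, the glycogen branching enzyme, ranged from 18.8 to 23.8 CPM in untreated and from 23.9 to 26.2 CPM in RG2833 animals (log2 difference 0.23 ± 0.084, standard error; edgeR adjusted p = 0.1144). Without untreated replicate 4, where 1556 of all tested genes were called, its log2 fold change was 0.28 and it passed (edgeR adjusted p = 0.04755).

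**Figure D5:**
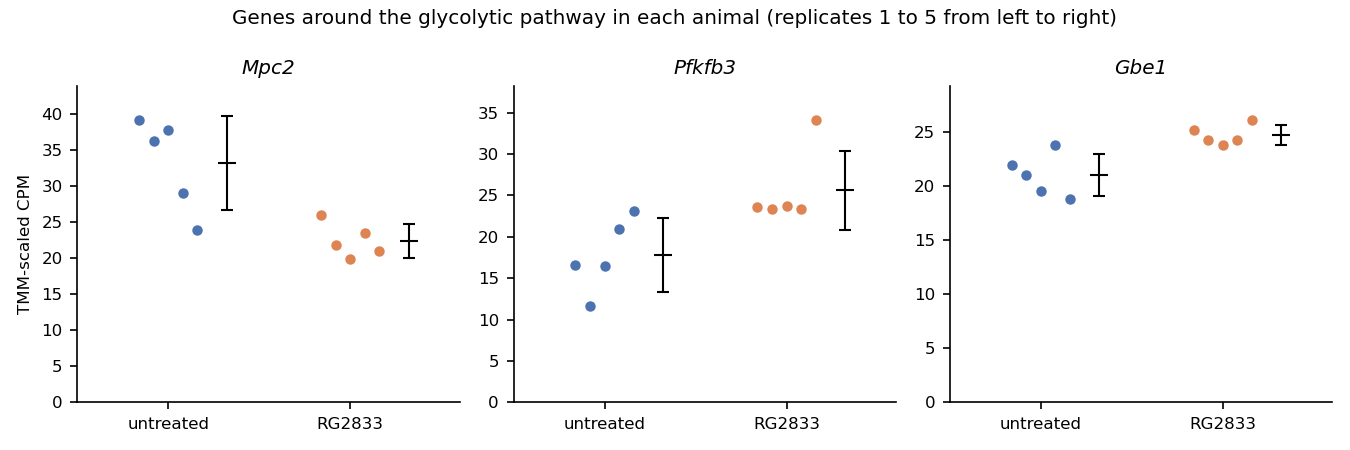
TMM-scaled CPM of Mpc2, Pfkfb3 and Gbe1, with 1 point per animal (5 untreated in blue, 5 RG2833 in orange) and mean and SD as a black bar; each vertical axis starts at 0. Mpc2 overlaps through untreated replicate 5, and Pfkfb3 and Gbe1 are separated by narrow gaps.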

How the data were processed

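RNA from the left hippocampus of 10 rats was sequenced, 5 untreated and 5 given RG2833. Per the submitters' processing notes, the tools were bcl2fastq 2.17, Bowtie2 2.1.0, RSEM 1.2.15 and edgeR, with build rn6; the gene annotation is not given in the sources used here. The authors deposited RSEM expected counts per gene symbol and a TMM-scaled table, treated as a normalized signal because its columns do not sum to the same total. Columns were assigned by the sample title in their headings.

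The estimated counts were first rounded. Low genes were removed with filterByExpr, and the rest were scaled by TMM and tested with the quasi-likelihood F test of edgeR (version 4.0.16, under R 4.3.3) over all 10 samples without covariates, with Benjamini-Hochberg adjustment over 11791 genes. Calls needed an adjusted p below 0.05. Standard errors were taken as the absolute log2 value over root F, and intervals use 95% of the t distribution with the degrees of freedom of the fit. Log2 CPM used a prior count of 2. Isozyme ratios used a pseudocount of 0.5 counts. Chi-square statistics per degree of freedom of 4.6 or more in 20 within-group pairs gave no sign of duplicate libraries.

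The members and lists were chosen with earlier results of these data known. Genes named beside the 10 were the called genes of each list, the 2 most highly expressed where fewer than 2 were called, the isozyme partners and the 5 nearest profiles; others are said to have been chosen after their values were seen. Alternatives were other scalings, filters, tests (DESeq2 1.42.0, limma 3.58.1), covariates, a replicate block, another threshold, leaving out each animal and, chosen after seeing the data, summing gene copies. Promoters came from RefSeq (GRCr8), and no coordinates of rn6 are given. A further result of the related lists is not reported here.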

Additional observations from a re-analysis of the deposited data

Results flagged for a closer look

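In 86 groups of 5 values (the named genes and the isozyme ratios, each in both treatment groups), 5 contained a sample whose gap to its neighbour exceeded 0.71 of the range, the 95% limit of Dixon for 5 samples, where chance gives about 4.3. None of the 5 was a level of the 10 glycolysis genes. Pfkfb3 was 34.1 CPM in RG2833 replicate 5 and 23.4 to 23.7 CPM in the other RG2833 animals. Taldo1 was 114.8 CPM in the same animal and 132.6 to 137.3 CPM in the others. Mpc1 was 108.8 CPM in this animal too and 123.9 to 125.3 CPM in the others. The log2 ratio of Aldoa to Aldoc was 0.69 in untreated replicate 2 against 1.199 to 1.39 in the other untreated animals, and 1.69 in RG2833 replicate 1 against 1.33 to 1.42.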

How the results depend on the processing

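The count of 0 called glycolysis genes did not change under any alternative, and their median log2 fold change ran from -0.093 to 0.081. The 599 calls over all genes (284 higher, 315 lower) became 1286 with DESeq2's Wald test and 1466 at an adjusted p under 0.1. They became 2 after adding the ribosomal RNA share and 3 after adding the excitatory neuron markers. Leaving out 1 animal gave 98 to 1556, the highest without untreated replicate 4, a change of over 1.5 times for each of the 10 animals. With library totals only, 228 calls were higher and 367 lower. The 2 calls among the related lists became 5 at an adjusted p under 0.1, 0 with either covariate, and 0 to 8 when 1 animal was left out, the highest without untreated replicate 4.

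Replicate numbers do not link animals across the groups. Deviations from the group mean correlated at -0.066 on average between samples with equal numbers, with 1 of 5 untreated samples closest to its own number. With the replicate block 180 genes were called over all genes and 1 among the related lists. It changed no call of the 10 glycolysis genes or the isozyme ratios, where Eno2/Eno1 had an exact permutation p of 0.125 and 5 pairs cannot reach an exact p under 0.05.

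Signs turned as follows, and the cause was not tested. With the ribosomal RNA share, log2 fold changes were 0.17 for Gpi, 0.031 for Pfkm, 0.0084 for Pfkp, 0.070 for Aldoa, 0.022 for Tpi1, 0.035 for Pgam1, 0.088 for Ldhb, 0.086 for Gapdh, 0.23 for Slc2a1, -0.17 for Hif1a, -0.020 for Tkt, -0.090 for Taldo1, 0.078 for Pygb, 0.13 for G6pc3, 0.068 for Pck2, 0.19 for Aldoc, -0.052 for Pfkfb3, 0.26 for Pklr, 0.028 for Mpc1, 0.032 for Cyp51, 0.025 for Cct2 and 0.052 for Sult4a1. With the excitatory neuron markers they were 0.21 for Gpi, 0.035 for Pfkm, 0.049 for Pfkp, 0.16 for Aldoa, 0.053 for Tpi1, 0.016 for Pgk1, 0.063 for Pgam1, 0.10 for Ldhb, 0.20 for Gapdh, -0.15 for Hif1a, 0.013 for Pdha1, -0.075 for Taldo1, 0.13 for Pygb, 0.0076 for Pgm2l1, 0.11 for G6pc3, 0.14 for Eno1, 0.050 for Aldoc, 0.085 for Mpc1, 0.067 for Cyp51, 0.13 for Cct2, 0.095 for Tubb5 and 0.070 for Sult4a1.

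Leaving out 1 animal turned the sign within these ranges: Gpi -0.10 to 0.0065, Pfkp -0.086 to 0.0012, Aldoa -0.077 to 0.012, Pgam1 -0.086 to 0.033, Eno2 -0.0095 to 0.12, Gapdh -0.10 to 0.018, Pdha1 -0.093 to 0.018, Taldo1 -0.043 to 0.086, Pgm2l1 -0.075 to 0.042, Eno1 -0.10 to 0.028, Ldha -0.15 to 0.015, Pfkl -0.025 to 0.15, Hk2 -0.067 to 0.14, Cct2 -0.081 to 0.015, Stip1 -0.018 to 0.057, the ratio Hk1/Hk2 -0.13 to 0.14 and the ratio Pfkp/Pfkm -0.016 to 0.040. Low genes such as Hk2, at under 10 CPM, rest on few counts. Pklr has no value with a mean count of at least 50, which removes it.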
